A study of Mus musculus with 4 samples.

Results

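The 10 MHC class I antigen presentation genes described here were followed in mouse primary myotubes treated with EDA-A2. They were taken as a named list, chosen with earlier results of these data known, so counts over the list are a description only. The list holds the heavy chains H2-K1 and H2-D1, the light chain B2m, the peptide transporter subunits Tap1 and Tap2 and the peptide-loading factor Tapbp. It also holds the inducible proteasome subunits Psmb8, Psmb9 and Psmb10 and the transcriptional activator Nlrc5. All 10 of them were found by gene symbol among the 53647 genes of the count tables.

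Bulk RNA sequencing covered 4 libraries of wild-type primary myotubes, 2 labelled control and 2 labelled EDA-A2. In both groups, myoblasts came from limb muscles of pups aged 2 to 3 days, were differentiated in horse serum and were harvested 72 h after differentiation began. The treated myotubes received recombinant EDA-A2, the ligand of the TNF receptor family member EDA2R, at 250 ng/mL for 24 h, and what the control cultures received in its place is not stated in the labels. The labels number the replicates 1 and 2 without saying that they came from separate cultures or litters, so p-values measure the spread between these libraries, which may be technical.

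MHC class I molecules display peptides from proteins of the cell interior to CD8 T cells. The proteasome cuts the peptides, the TAP transporter carries them into the endoplasmic reticulum, and a loading complex places them on a heavy chain bound to β2-microglobulin. Interferon-γ and NFκB raise many genes of the pathway, and resting skeletal muscle fibres are known for little class I on their surface, which rises in inflamed muscle.

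Counts on genes summed to between 29444155 and 29746863 per library, and a count of 0 allows up to 3 counts, or 0.101 to 0.102 CPM, as counting error only. Values below are counts normalized by edgeR's TMM factors to one mean library size. Of the 15173 genes tested, the quasi-likelihood F test of edgeR, adjusted by the Benjamini-Hochberg method, called 371 higher and 323 lower at an adjusted p of 0.05. With every gene of at least 1 count tested, it called 64 higher and 22 lower of 25545. Markers of myotubes made up most of the marker counts in all libraries. Their summed normalized counts were 753159 and 722252 in control and 551808 and 552267 in EDA-A2, and 4 of the 10 markers (Myh3, Myh8, Acta1 and Actn2, named after their values were seen) were called lower. The part of this fall in the values of the class I genes was not tested. In bulk RNA, fewer cells of a type and less RNA per cell cannot be told apart.

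The upstream sequences of the genes for both heavy chains and for B2m are shown because these subunits form the class I molecule itself, and that of Tap1 because it also serves Psmb9. They are RefSeq promoter windows on the GRCm38.p6 build, whose coordinates differ from those of the count data, and each runs for 250 bases up to the base before the transcription start, on the strand of the gene. RefSeq windows were matched for 8 of the 10 genes, all but Tap2 and Nlrc5. H2-K1 had 2 windows with different starts, and only that at the coordinates below is printed. Capitals mark matches, on either strand, to the NFκB consensus, to the interferon-stimulated response element core GAAANNGAA, to the interferon-γ activated site TTCNNNGAA, to CCAAT and to TGACG. The last pair are core letters of the Y box and of the X box, through which Nlrc5 and its partners act on class I promoters.
H2-K1, chr17:34000334-34000583, minus strand: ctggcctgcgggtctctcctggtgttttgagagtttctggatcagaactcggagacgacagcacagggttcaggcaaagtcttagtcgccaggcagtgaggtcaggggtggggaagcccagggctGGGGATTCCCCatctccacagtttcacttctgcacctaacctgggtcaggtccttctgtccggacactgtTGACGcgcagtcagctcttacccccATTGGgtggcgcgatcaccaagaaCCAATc
H2-D1, chr17:35262844-35263093, plus strand: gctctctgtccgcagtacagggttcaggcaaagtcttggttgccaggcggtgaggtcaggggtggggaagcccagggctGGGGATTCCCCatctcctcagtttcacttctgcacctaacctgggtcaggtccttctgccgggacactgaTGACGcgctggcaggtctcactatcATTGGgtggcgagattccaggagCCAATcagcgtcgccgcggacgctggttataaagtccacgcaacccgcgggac
B2m, chr2:122147437-122147686, plus strand: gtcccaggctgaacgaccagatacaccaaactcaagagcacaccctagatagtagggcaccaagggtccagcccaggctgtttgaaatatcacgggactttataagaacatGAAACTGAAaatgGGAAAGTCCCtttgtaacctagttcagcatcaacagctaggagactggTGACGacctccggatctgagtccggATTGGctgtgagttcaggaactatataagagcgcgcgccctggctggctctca
Tap1, chr17:34187306-34187555, plus strand: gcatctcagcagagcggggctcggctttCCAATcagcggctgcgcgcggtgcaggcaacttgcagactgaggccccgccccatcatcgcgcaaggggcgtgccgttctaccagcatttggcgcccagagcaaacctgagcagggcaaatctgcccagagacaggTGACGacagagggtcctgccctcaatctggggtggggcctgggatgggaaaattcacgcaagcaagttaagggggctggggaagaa

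The printed H2-K1 and H2-D1 windows aligned over 203 columns without gaps, of which 177 (87.2%) were identical. Both held the same NFκB stretch, at positions -125 to -115 of H2-K1 and -171 to -161 of H2-D1. Positions are counted from -1 at the base before the start. In each, this stretch holds a pair of matches that overlap by all but 1 base at either end. In the H2-K1 window not printed, the stretch lay at -111 to -101. B2m held a response element core at -139 to -131 and an NFκB match on the minus strand at -126 to -117. The NFκB consensus was found for these 3 of the 8 genes with a window, and in 3.90% of all 32851 RefSeq windows. The response element core was found for B2m alone of the 8, against 7.13% of all windows. The interferon-γ activated site was found in Psmb8 alone of the 8, against 7.02% of all windows. CCAAT was found for 6 of the 8 genes against 33.9% of all windows, and TGACG for 5 of the 8 against 17.8%. The Tap1 window and the Psmb9 window on the opposite strand shared 225 bases and so are not independent entries in these counts. A match describes the letters and is not a measured binding site. Where no match was found, a variant of the element with other letters may still be present.

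In control myotubes the 10 genes stood at very different levels per kilobase of exon, as the plot of levels by gene shows. B2m stood highest, at a mean of 5255 normalized counts per kilobase, followed by H2-K1 at 1341, H2-D1 at 334, Tapbp at 265 and Psmb10 at 136. Tap2 (58.2), Tap1 (43.6), Psmb8 (9.25), Nlrc5 (6.43) and Psmb9 (2.43) lay below 100. Over the 4 libraries, the ranges of neighbours in this order did not overlap, except those of H2-D1 with Tapbp and of Tap2 with Tap1. After EDA-A2 the mean of Tapbp (403) lay above that of H2-D1 (389.7), and the rest of the order was as in control.

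**Figure D1:**
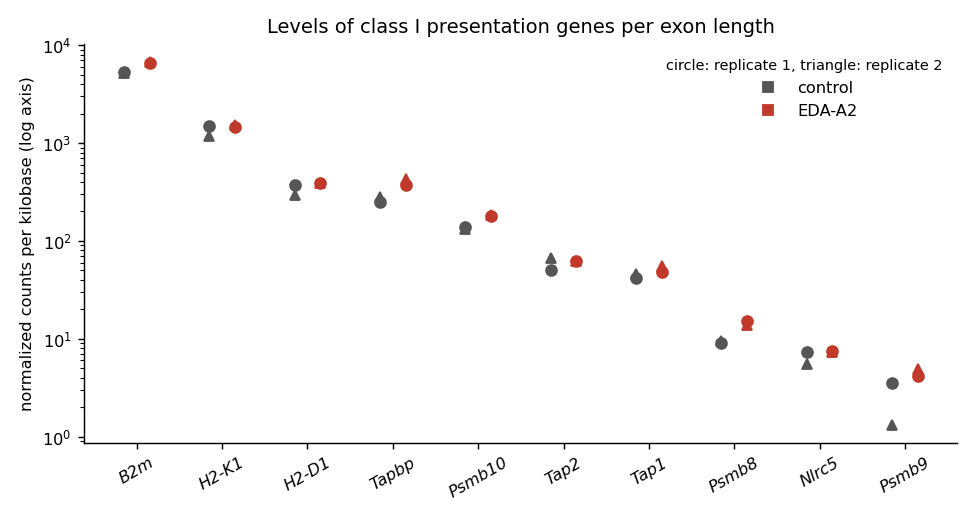
Normalized counts per kilobase of merged exons on a log axis for the 10 genes, ordered by level, with circles for replicate 1 and triangles for replicate 2 of control (grey) and EDA-A2 (red). B2m lies between 5207 and 6729.6 in the 4 libraries and Psmb9 between 1.33 and 4.91.

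After 24 h of EDA-A2, Tapbp and B2m rose, and none of the 10 genes was called lower. The fitted log2 fold changes of all 10 were above 0 (background 49.5%), and their median was 0.28 against -0.0021 over all genes tested. By the adjusted p, 2 of the 10 were called higher (background 2.45%) and 0 lower (background 2.13%, 323 genes). At an unadjusted p under 0.05, 5 of the 10 were higher (background 7.61%) and 0 were lower. Both EDA-A2 libraries lay above both control libraries for 8 of the 10 (background 22.8%). The number of non-overlapping genes was 7 with DESeq2 size factors (background 22.4%) or upper quartile factors (background 23.5%) and 9 with total counts (background 33.2%), which also shifted the median of all genes to 0.053.

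**Figure D2:**
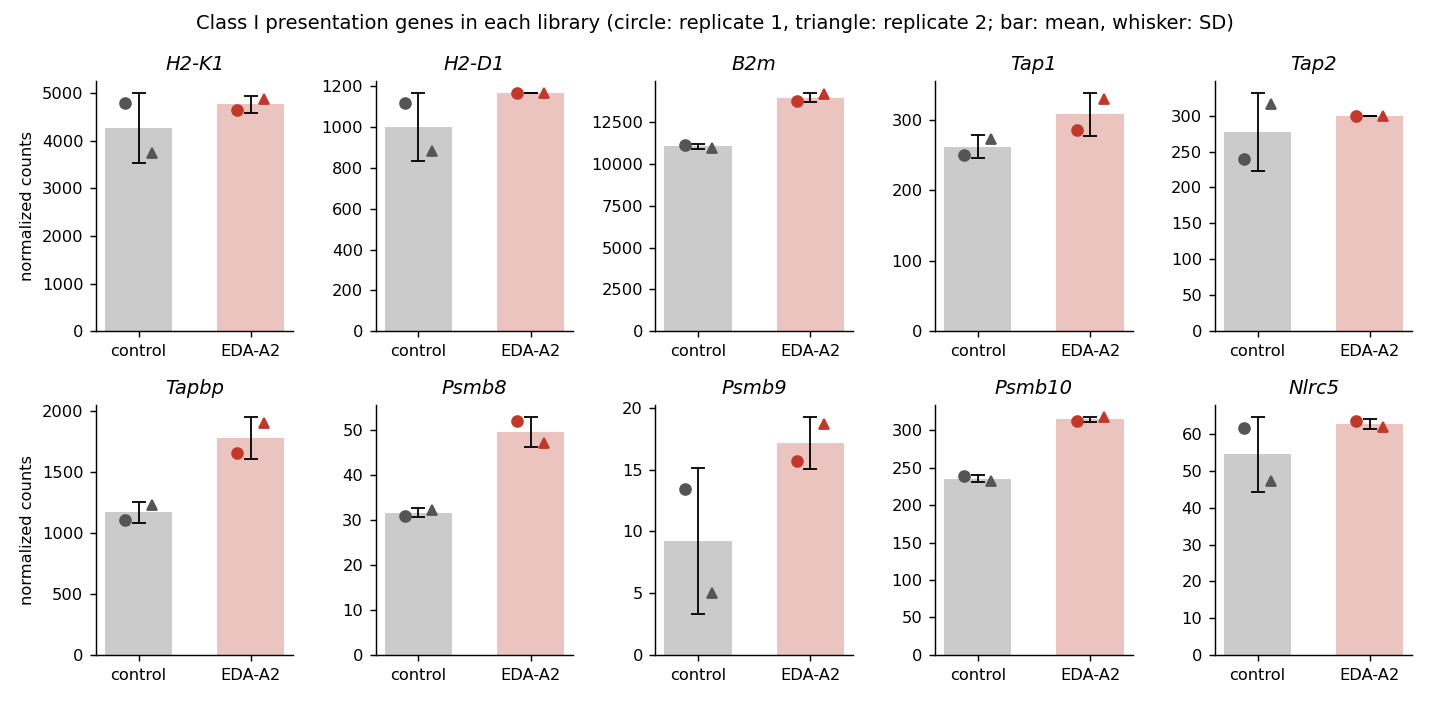
Normalized counts of the 10 genes in each library, with circles for replicate 1, triangles for replicate 2, bars for the mean and whiskers for the SD (n = 2 libraries). The EDA-A2 libraries of B2m, Tapbp, Psmb8 and Psmb10 lie clear of the control libraries, while the control libraries of H2-K1, H2-D1 and Nlrc5 lie far apart.

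The control libraries differed from each other for several of these genes, and control replicate 1 lay above control replicate 2 for 6 of the 10. Each result was therefore also fitted without each library in turn, and values without a control library are given below for many of the named genes, but not all. Few genes were called without a control library, as the counts over all genes below show. Such a fit rests on 1 library of a group, assumed to vary like the other group. Over all genes, 7 were called higher and 0 lower without control replicate 1, and 9 and 0 without control replicate 2. Leaving out EDA-A2 replicate 1 gave 217 higher and 134 lower, and leaving out EDA-A2 replicate 2 gave 223 and 193.

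Among the chains of the class I molecule, the light chain rose while the heavy chains were not called. B2m (ENSMUSG00000060802, chr2:121977957-121983594 of GRCm39), the β2-microglobulin that every class I heavy chain needs to fold, stood at 11167 and 10966 normalized counts in control and at 13774 and 14173 after EDA-A2. The groups did not overlap, and the control libraries lay close together. On the log2 scale B2m changed by 0.34 (standard error 0.07, 95% interval 0.20 to 0.48, adjusted p = 0.00727 by edgeR's quasi-likelihood test), a 1.26-fold rise. Leaving out each library in turn gave 0.32 to 0.36, while the adjusted p rose to 0.197 without control replicate 1, 0.150 without control replicate 2, 0.0893 without EDA-A2 replicate 2 and 0.0925 with no filter on low counts.

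H2-K1 (ENSMUSG00000061232, chr17:34214987-34219321, minus strand), the heavy chain that presents peptides at the K locus, had 4789.9 and 3752 normalized counts in control and 4643 and 4886 after EDA-A2. Control replicate 1 lay between the EDA-A2 libraries, so the groups overlapped. H2-K1 changed by 0.16 on the log2 scale (standard error 0.09, 95% interval -0.04 to 0.36, adjusted p = 0.474 in edgeR), with 0.34 without control replicate 1 and -0.010 without control replicate 2.

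H2-D1 (ENSMUSG00000073411, chr17:35481691-35486475), the heavy chain of the D locus, had 1117 and 882 normalized counts in control and 1166.4 and 1165.6 after EDA-A2. Both treated libraries lay above both controls, and the nearer control was the same replicate 1 that stood high for H2-K1. H2-D1 changed by 0.22 on the log2 scale (standard error 0.10, 95% interval 0.01 to 0.44, adjusted p = 0.296 in edgeR), with 0.40 without control replicate 1 and 0.059 without control replicate 2. The ratio of H2-D1 to H2-K1 counts per kilobase was 24.8% and 25.0% in control and 26.7% and 25.4% after EDA-A2, so the 2 heavy chains kept nearly one proportion in the 4 libraries. H2-K1 stood at 28.4% and 22.6% of B2m per kilobase in control and at 22.3% and 22.8% after EDA-A2, with the higher value again in control replicate 1.

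Heavy chain genes resemble each other closely, and reads that fit several places equally are not assigned to any one gene. Stretches of 100 bases in their annotated transcripts were matched, on either strand, to transcripts of other genes. The share found there was 10.4% for H2-K1 and 12.2% for H2-D1, against 0 for B2m. The share was 31.3% for Tapbp and 13.8% for Psmb9, whose overlapping neighbours are given below. Tap1 (8.66%), Psmb8 (7.31%) and Tap2 (3.69%) shared less, and Psmb10 and Nlrc5 shared 0. All shared stretches of H2-K1, and 10.39% of the stretches of H2-D1, occurred in genes absent from the count tables. Those of Tap1, Psmb9, Psmb8 and Tap2 were shared only with genes that overlap them on the opposite strand. How far shared stretches affected the counts of any gene was not tested. The 19 heavy chain genes in the tables, which include the annotated pseudogene H2-K2, were also summed. H2-K1 and H2-D1 took 76.8% of their counts. Summed normalized counts were 7613 and 6150 in control and 7491 and 7914 after EDA-A2. Control replicate 1 again lay between the treated libraries. The sum had a log2 fold change of 0.16 (standard error 0.09, 95% interval -0.02 to 0.35, adjusted p = 0.417 in edgeR).

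Of the other class I heavy chain genes, 17 of 18 named were matched in the tables, 6 of them were at 0 in every library and 7 could be tested. None of the 7 was called by edgeR in either direction, and 0 had an unadjusted p under 0.05, and the median of their log2 fold changes was 0.15. H2-T22, a non-classical heavy chain bound by γδ T cell receptors, had 741 and 698 normalized counts in control and 766 and 885 after EDA-A2 (log2 fold change 0.20, adjusted p = 0.342 in edgeR). H2-K2 (0.44, adjusted p = 0.400), H2-M5 (0.65, adjusted p = 0.498) and H2-M3 (-0.23, adjusted p = 0.568), which presents formylated peptides, were not called by edgeR either. H2-K2 is annotated as a transcribed pseudogene. The related molecules outside the heavy chain family gave 0 calls among 5 tested genes of 7 named and 0 with an unadjusted p under 0.05. Among them, Cd1d1, which presents lipids to natural killer T cells, changed by 0.34 on the log2 scale (adjusted p = 0.528), and Mr1, which presents vitamin metabolites to MAIT cells, by 0.12 (adjusted p = 0.639) in edgeR.

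Of the 3 listed genes that supply and load peptide, Tapbp was called. Tapbp (ENSMUSG00000024308, chr17:34134873-34148267) encodes tapasin, which bridges the TAP transporter and the empty class I molecule and favours tightly bound peptides. It had 1106 and 1230.2 normalized counts in control and 1654 and 1902 after EDA-A2, and the groups did not overlap. Tapbp changed by 0.61 on the log2 scale (standard error 0.09, 95% interval 0.42 to 0.79, adjusted p = 0.000747 by edgeR's quasi-likelihood test), or 1.52-fold. Leaving out 1 library gave 0.50 to 0.70, and the adjusted p rose to 0.221 without control replicate 1, 0.141 without control replicate 2 and 0.0984 with no filter on low counts.

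Tapbp shares exon bases with neighbours, 923 (20.9% of its exons) with Zbtb22 on the same strand and 1130 (25.6%) with the long noncoding Gm19412 on the opposite strand. Zbtb22, a zinc finger gene, had 580 and 603 normalized counts in control and 628 and 583 after EDA-A2, a change of 0.034 on the log2 scale (adjusted p = 0.925 in edgeR). Gm19412 had 31.9 and 36.3 in control and 23.5 and 37.3 after EDA-A2. Neither neighbour was called.

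Both subunits of the TAP transporter, which form a single peptide pump in the membrane of the endoplasmic reticulum, had fitted changes above 0 but neither was called. Tap1 (ENSMUSG00000037321, chr17:34405996-34416199) had 250.4 and 273 normalized counts in control and 286 and 329 after EDA-A2, without overlap of the groups. This was a change of 0.23 on the log2 scale (standard error 0.13, 95% interval -0.04 to 0.51, adjusted p = 0.437 in edgeR), with 0.13 without EDA-A2 replicate 2 and 0.33 without EDA-A2 replicate 1. Tap2 (ENSMUSG00000024339, chr17:34422501-34435829) had 239 and 316 in control and 299.0 and 299.7 after EDA-A2, and the treated libraries lay between the controls. The log2 fold change of Tap2 was 0.11 (standard error 0.14, 95% interval -0.19 to 0.41, adjusted p = 0.803 in edgeR), with -0.079 without control replicate 1 and 0.32 without control replicate 2. The Tap2 to Tap1 ratio per kilobase, 120.3% and 146% in control and 132% and 115% after EDA-A2, overlapped between the groups.

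In the wider list of endoplasmic reticulum folding and peptide editing genes, 1 of 8 was called higher (background 2.45%) and 0 lower (background 2.13%). The median change was 0.075 on the log2 scale. The gene called was Erap1, the aminopeptidase that trims peptides to the length that class I binds. Erap1 had 275 and 249 normalized counts in control and 462 and 554 after EDA-A2, without overlap of the groups. At 0.95 on the log2 scale (standard error 0.12, adjusted p = 0.000287 in edgeR), the rise of Erap1 was called, and its adjusted p was 0.0667 with no filter on low counts, and 0.193 and 0.151 without control replicates 1 and 2. Tapbpl, a tapasin relative that edits peptides outside the loading complex, had 156 and 134 in control and 194 and 188 after EDA-A2 (log2 fold change 0.40, unadjusted p = 0.0224, adjusted p = 0.207 in edgeR). The general chaperones of the loading complex were abundant and not called: calreticulin (Calr) had a log2 fold change of 0.13, calnexin (Canx) 0.060 and the disulphide isomerase Pdia3 0.089, with adjusted p = 0.622, 0.767 and 0.718 in edgeR. Without control replicate 1 those of Calr and Pdia3 were -0.062 and -0.059.

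The 3 catalytic subunits of the immunoproteasome, which replace constitutive subunits of the proteasome and favour cuts that suit class I, were all higher in both treated libraries, and none was called. Psmb10 (ENSMUSG00000031897, chr8:106662362-106665077, minus strand), the subunit that takes the place of Psmb7, had 239 and 232 normalized counts in control and 313 and 317 after EDA-A2. The libraries of each group lay close together, but 2 libraries per group are a poor measure of the spread. Psmb10 changed by 0.42 on the log2 scale (standard error 0.12, 95% interval 0.16 to 0.68, unadjusted p = 0.00401, adjusted p = 0.0722 in edgeR), and by 0.40 to 0.44 when any 1 library was left out. The adjusted p of Psmb10 was 0.0468 when libraries were scaled by total counts.

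Psmb8 (ENSMUSG00000024338, chr17:34416690-34420428), which takes the place of Psmb5, had 30.9 and 32.3 normalized counts in control and 51.9 and 47.2 after EDA-A2. The groups did not overlap, and the values were low in all 4 libraries. The log2 fold change of Psmb8 was 0.65 (standard error 0.28, 95% interval 0.05 to 1.24, unadjusted p = 0.0348, adjusted p = 0.264 in edgeR). Gm20496, which shares 498 exon bases with Psmb8 on the opposite strand, had no count in any library.

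Psmb9 (ENSMUSG00000096727, chr17:34400960-34406738, minus strand), which takes the place of Psmb6, was near the limit of detection, with 13 and 5 raw counts in control and 16 and 19 after EDA-A2. A log2 fold change of 0.89, the highest fitted value of the 10 genes, came with a standard error of 0.49 and a 95% interval of -0.16 to 1.95 (adjusted p = 0.437 in edgeR). The log2 fold change of Psmb9 was 0.35 without control replicate 2 and 1.74 without control replicate 1. Psmb9 and Tap1 lie head to head and share 743 exon bases on opposite strands, 19.6% of the exons of Psmb9. The libraries were made with a stranded kit, but the strand option of the counting is not given in the sources used here. Which gene, if either, received the reads of the shared stretch is therefore not known.

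The constitutive subunits gave 0 calls among 3 tested and 0 with an unadjusted p under 0.05 in edgeR, with fitted log2 fold changes of -0.080 for Psmb5, -0.044 for Psmb6 and -0.029 for Psmb7 under TMM and 0.011 for Psmb6 and 0.025 for Psmb7 under total counts. Per kilobase, Psmb10 stood at 17.0% and 16.9% of Psmb7 in control and at 24.6% and 21.9% after EDA-A2. Psmb8 stood at 0.700% and 0.751% of Psmb5 in control and at 1.33% and 1.09% after EDA-A2. Psmb9 stood at 0.197% and 0.0749% of Psmb6 in control and at 0.246% and 0.277% after EDA-A2. All 3 ratios were higher in both treated libraries than in both controls, and for Psmb8 and Psmb9 the inducible transcript stayed at or under 1.33% of its constitutive counterpart. With 2 libraries per group an exact two-sided permutation test cannot give a p under 0.333, so the ratios are given without a test.

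**Figure D3:**
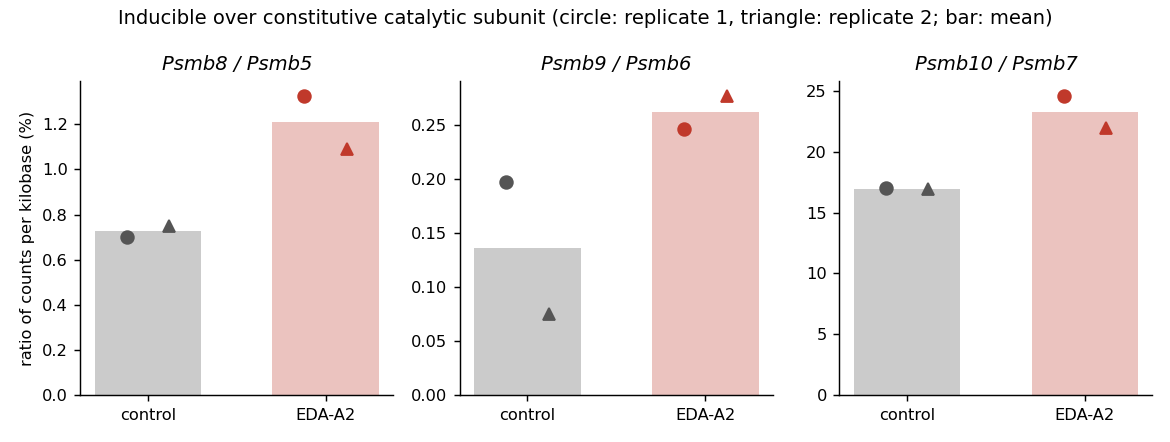
Ratio, in percent, of each inducible to its constitutive catalytic subunit in normalized counts per kilobase, with circles for replicate 1, triangles for replicate 2 and bars for the mean of 2 libraries. Each panel has its own axis from 0, and the EDA-A2 libraries lie above the control libraries in all 3 panels.

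Among the proteasome activators and assembly factors, 1 of 8 genes was called higher (background 2.45%) and 0 lower (background 2.13%). The median change was 0.031 on the log2 scale. Psme2, a subunit of the PA28 activator ring that interferon-γ induces, had 624 and 657 normalized counts in control and 890.0 and 941 after EDA-A2 (log2 fold change 0.51, standard error 0.09, adjusted p = 0.00278 in edgeR). The adjusted p of Psme2 was 0.0903 with no filter on low counts, and 0.205 and 0.141 without control replicates 1 and 2. Its partner Psme1 had 442 and 476 in control and 554 and 505 after EDA-A2, again without overlap but not called (log2 fold change 0.21, adjusted p = 0.373 in edgeR). The Psme2 to Psme1 ratio per kilobase was 330% and 322% in control and 375% and 435% after EDA-A2. Psme3, the nuclear PA28 subunit, changed by 0.12 and the proteasome inhibitor Psmf1 by -0.13 on the log2 scale, and neither was called by edgeR (adjusted p = 0.505 and 0.604). Of the cytosolic peptidases, which destroy or trim proteasome products, 0 of 7 were called higher (background 2.45%) and 1 lower (background 2.13%). Thop1, thimet oligopeptidase, had 9598 and 8852 in control and 7300.4 and 7492 after EDA-A2 (log2 fold change -0.32, standard error 0.07, adjusted p = 0.0135 in edgeR). The adjusted p of Thop1 was 0.149 with no filter on low counts. Its log2 fold change was -0.26 and -0.38 without control replicates 1 and 2.

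Nlrc5 (ENSMUSG00000074151, chr8:95160984-95253900), the transactivator that drives class I genes, had 61.8 and 47.4 normalized counts in control and 63.7 and 61.9 after EDA-A2. Control replicate 1 lay just below the lower treated library, so the groups were barely apart. Nlrc5 changed by 0.20 on the log2 scale (standard error 0.25, 95% interval -0.32 to 0.73, adjusted p = 0.789 in edgeR), with 0.40 without control replicate 1 and 0.020 without control replicate 2.

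Among the other factors that act on class I genes, some members of the NFκB, interferon regulatory factor and RFX families rose and others were not called. Of 20 named, 19 were tested, and their median log2 fold change was 0.081. By edgeR 4 were called higher (Nfkb2, Irf1, Relb and Rfx5, background 2.45%) and 0 lower (background 2.13%). Rela, Nfkb1, Irf2, Irf9, Rfxap and Rfxank, named after their values were seen, were not called. The log2 fold changes of Irf9 (-0.32) and Rfxap (-0.11) were below 0. Irf1, an interferon regulatory factor that binds response elements of class I genes, had 617 and 656 normalized counts in control and 1363 and 1293 after EDA-A2 (log2 fold change 1.06, standard error 0.08, adjusted p = 2.84e-06 in edgeR). Without control replicates 1 and 2 the log2 fold change of Irf1 was 1.01 and 1.10. Rfx5, a subunit of the complex on the X box with which Nlrc5 works, had 434 and 428 in control and 694 and 721 after EDA-A2 (log2 fold change 0.72, standard error 0.10, adjusted p = 0.000346 in edgeR). The libraries of both genes lay close together within each group. Of the NFκB subunits, Nfkb2 changed by 1.89 and Relb by 0.99 on the log2 scale.

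Irf9, a factor of the type I interferon response, is named here after its values were seen, because its control libraries lay far apart: 429.6 and 244 normalized counts in control and 264 and 277 after EDA-A2. The treated libraries lay between the controls. H2-K1, H2-D1, Psmb9 and Nlrc5 were high in the same control library as Irf9, control replicate 1. Tap1, Tap2, Tapbp and Psmb8 were lower in that library than in control replicate 2. The part of this difference between control libraries in the class I values was not tested.

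The 4 interferon genes looked at were at or near 0, while 5 genes of interferon receptors and receptor kinases rose. Ifnb1, Ifna4 and Ifnl3 had 0 counts in all 4 libraries, which allows up to 3 counts each, and Ifng had 1 count in EDA-A2 replicate 1 alone. Of the 7 genes of this list that were tested, 5 were called higher (background 2.45%) and 0 lower (background 2.13%), and the median change was 0.41 on the log2 scale. Ifngr1, the ligand-binding chain of the interferon-γ receptor, had 1087 and 1075 normalized counts in control and 1702 and 1866 after EDA-A2 (log2 fold change 0.72, standard error 0.08, adjusted p = 5.73e-05 in edgeR). Ifngr2, its signalling chain, rose by 0.50 on the log2 scale (adjusted p = 0.00251), and the receptor kinases Tyk2 and Jak2 rose by 0.78 (adjusted p = 0.000121) and 0.41 (adjusted p = 0.00978) in edgeR. With no filter on low counts the adjusted p was 0.166 for Ifngr2, 0.0559 for Tyk2 and 0.157 for Jak2. The log2 fold change of Ifngr1 was 0.73 and 0.71 without control replicates 1 and 2. The remaining gene called, Ifnar1 of the type I receptor, which is named after its values were seen, rose by 0.29 (adjusted p = 0.0411 in edgeR).

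Over all lists of the wider pathway, 93 of 94 named genes were matched, 66 were tested, 12 were called higher (background 2.45%) and 1 lower (background 2.13%) by edgeR. Of the 66, 25 did not overlap in the direction of a rise (background 22.8%) and 7 in that of a fall (background 3371 of 15173 genes). Their median log2 fold change was 0.077, against 0.28 for the 10 class I presentation genes. The plot of fold changes by list shows the 10 genes beside only part of the 66. Those drawn were chosen by smallest p-value or fixed by name, so the plot does not show these medians. With no filter on low counts 5 were called higher (Nfkb2, Irf1, Relb, Rfx5 and Ifngr1) and 0 lower, and without either control library 1 was called higher (Nfkb2) and 0 lower.

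**Figure D4:**
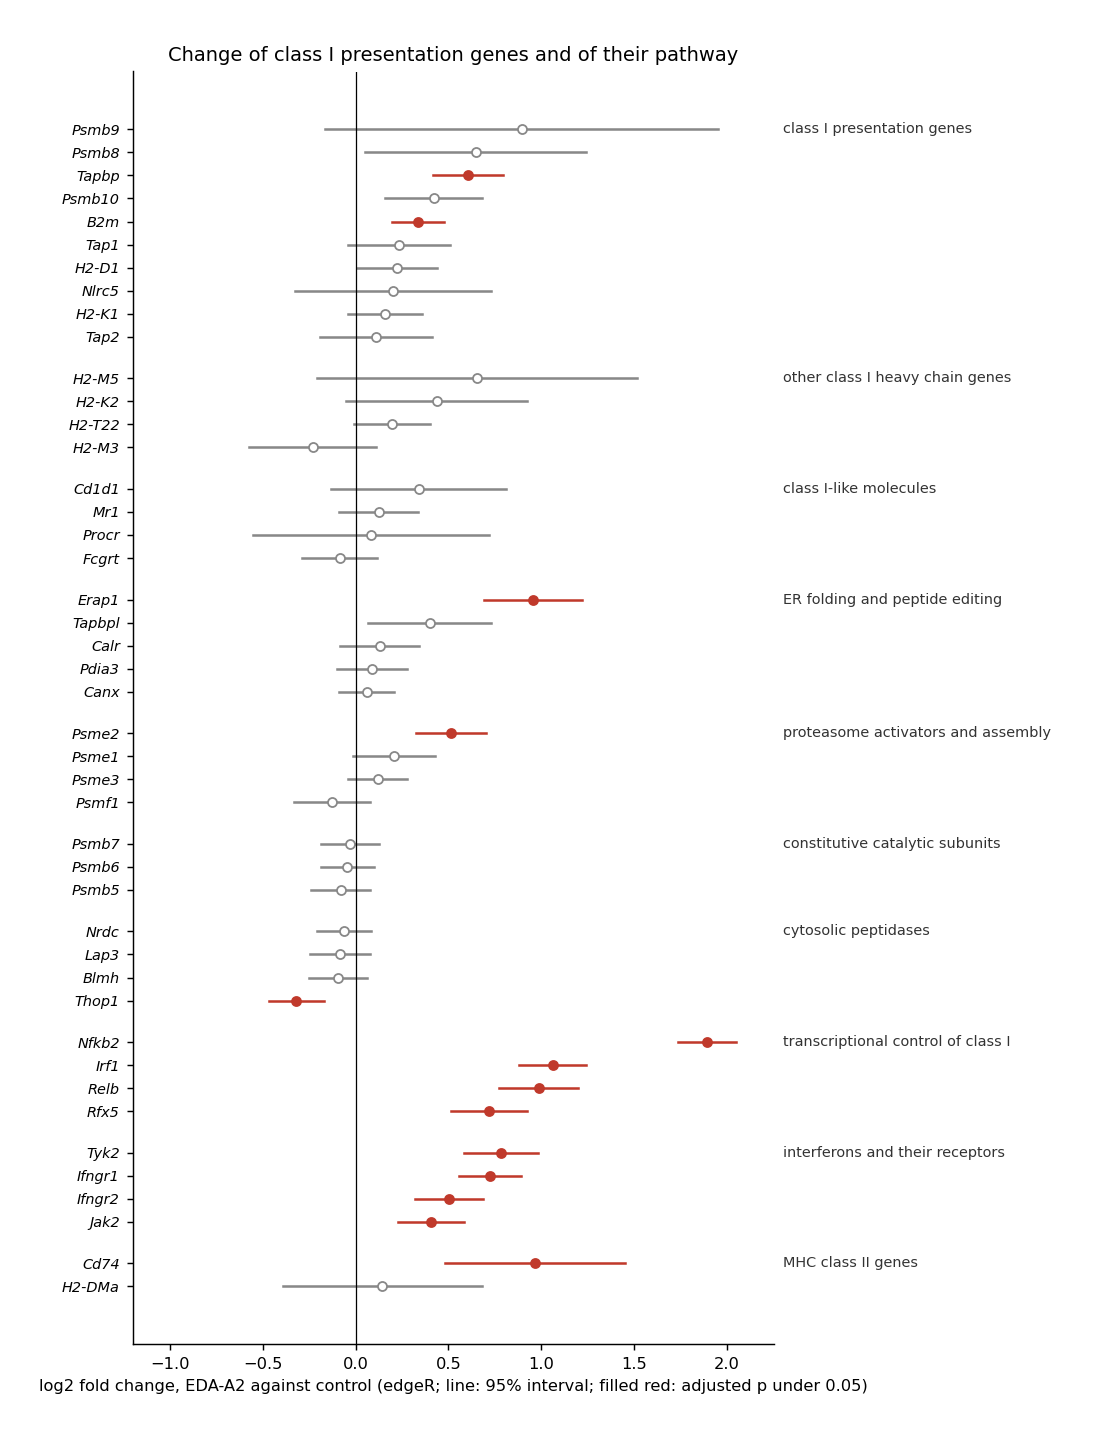
Log2 fold change of EDA-A2 against control, with 95% intervals from edgeR, filled red where the adjusted p is under 0.05. The 10 class I presentation genes stand with genes of each other list chosen by smallest p-value or fixed by name. The remaining genes of those lists are not drawn. Tapbp and B2m are red in the top group, and most red genes stand in the lists of transcriptional control and of interferon receptors.

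Professional antigen-presenting cells and lymphocytes carry much class I, so their markers were read in the same libraries. Of 10 macrophage markers, 2 were at 0 in every library, among them C1qa. Ptprc, the common leukocyte antigen CD45, had raw counts of 0 and 2 in control and 1 and 1 after EDA-A2, and the macrophage marker Adgre1 had 0 and 1 in control and 0 in both treated libraries. The 3 tested genes of the list, named after their values were seen, had fitted changes above 0. Mrc1, the mannose receptor, had 217 and 169 normalized counts in control and 282 and 199.5 after EDA-A2 (log2 fold change 0.32), and Cd68, a lysosomal protein, had 55.6 and 63.5 in control and 79.4 and 67.8 after EDA-A2 (log2 fold change 0.30). Itgam, the integrin CD11b, had 18.5 and 18.2 in control and 38.2 and 31.4 after EDA-A2 (log2 fold change 0.92, unadjusted p = 0.0161, adjusted p = 0.168 in edgeR). The EDA-A2 libraries of Cd68 and Itgam lay above the controls, and those of Mrc1 overlapped with them. The summed normalized counts of the macrophage list were 301 and 259 in control and 411 and 308 after EDA-A2, and 0 of its 3 tested genes were called by edgeR. Of 7 dendritic cell markers 5 were at 0 in every library, and the sum of the list was 294 and 386 in control and 394 and 435 after EDA-A2. Nearly all of that sum came from 1 gene, Zbtb46, with 274 and 357 in control and 381 and 409 after EDA-A2. Its log2 fold change was 0.32 (unadjusted p = 0.0277, adjusted p = 0.233 in edgeR). That of Batf3, the other gene tested, was -0.31. Lymphocyte markers summed to at most 3.09 normalized counts in any library. Fibroblast markers summed to 49610 and 51550 in control and 47312 and 47999 after EDA-A2. Most of that sum came from Col3a1, with 39996.6 and 46065.5 in control and 42197.1 and 41785.5 after EDA-A2. Lum and Thy1 were at 0 in every library. None of the tested genes of the list, named after their values were seen, was called. Dcn (log2 fold change 0.48, adjusted p = 0.267 in edgeR) and Pdgfra (0.16) were above 0, and Col1a1 (-0.46) and Col3a1 (-0.035) below. Endothelial markers summed to 151 and 166 in control and 196 and 182 after EDA-A2. Myoblast markers summed to between 18446 and 19825 and markers of dividing cells to between 21555 and 25582 over the 4 libraries. In the myoblast list, also named after their values were seen, Vcam1 rose by 0.53 (adjusted p = 0.00250) and Cdh15 fell by 0.47 (adjusted p = 0.00318) on the log2 scale in edgeR. The part of these cells in the class I values was not tested.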

How the data were processed

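Bulk RNA sequencing was analysed from 4 libraries of mouse primary myotubes, 2 control and 2 EDA-A2, prepared with the TruSeq Stranded mRNA kit. The deposited files hold raw counts of read pairs per Ensembl gene, which the authors made by trimming reads, mapping them to GRCm39 and counting them per gene. The submitters' processing notes name FastQC 0.11.9, MultiQC 1.12, Trim Galore 0.6.5, STAR 2.7.3a and HTSeq 0.11.1. The annotation release and the strand option of the counting are not given in the sources used here. Library sizes exclude the summary lines of HTSeq: 6.68% to 7.40% of pairs overlapped no counted feature, 0.946% to 0.986% were ambiguous and 4.56% to 4.76% did not map uniquely.

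Symbols, coordinates and exon lengths came from GENCODE M39, which matched 52610 of 53647 genes. The test was the quasi-likelihood F test of edgeR 4.0.16 in R 4.3.3, with TMM factors and condition as sole covariate. It was run on the 15173 genes that filterByExpr kept (minimum count 10, minimum total 15), with Benjamini-Hochberg adjustment over all of them and a threshold of 0.05. The common dispersion was 0.00384, and log2 fold changes had a median standard error of 0.10. Levels are normalized counts per kilobase of merged exons. The steps were tested on simulated data. Genes and lists were chosen with earlier results of these data known. The text names all 10 genes, up to 4 genes of the smallest p-value in each other list, a set of pathway genes fixed by name (1 of which is counted in its list but not reported here), and the 5 protein-coding genes nearest in profile. Alternatives were other scaling factors, filters and thresholds, robust estimation, the DESeq2 1.42.0 Wald test, a replicate block and leaving out each library. Replicate differences of the 2 groups correlated at 0.06 over genes, so the replicate numbers were not taken as pairs.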

Additional observations from a re-analysis of the deposited data

How the results depend on the processing

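Of the 10 class I presentation genes, 2 were called higher, 0 were called with no filter on low counts (4 had an unadjusted p under 0.05 in edgeR) and between 0 and 2 with each library left out. With total counts (3.20% of all genes called higher) and with the replicate number as a block (3.54%), 3 were called, against 2.45% of all genes in the fit reported. Their median log2 fold change of 0.28 was 0.34 with total counts, 0.23 with at least 10 counts in every library, where Psmb9 was not tested, and 0.27 to 0.40 with each library left out. Of the other pathway genes, the 12 called higher were 5 with no filter, 14 with the block and 1 to 10 with each library left out, and the 1 called lower was 0 with no filter, at an adjusted p of 0.01 and with each library left out. Over all genes, no filter called 64 higher and 22 lower of 25545 tested, DESeq2's Wald test 294 and 271, and the replicate block 537 and 529. The labels give the replicates only a number, and the block changed no other call among the 10 genes than that of Psmb10 (adjusted p = 0.0469).

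Log2 fold changes that turned sign were all of genes that were not called. Psmb6 (0.011) and Psmb7 (0.025) turned with total counts. With each library left out, the range was -0.010 to 0.34 for H2-K1, -0.079 to 0.32 for Tap2, -0.13 to 0.061 for Psmb7, -0.062 to 0.34 for Calr, -0.059 to 0.25 for Pdia3, -0.049 to 0.32 for Mr1, -0.24 to 0.081 for Fcgrt, -0.076 to 0.23 for Procr and -0.039 to 0.35 for H2-DMa. The cause was not tested. Psmb9, Psmb8 and Nlrc5 had the fewest counts of the 10 genes, which limits the precision of their values.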

Other observations

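MHC class II genes, which serve presentation to CD4 T cells, were nearly silent in these myotubes. Of 12 named, 5 were at 0 in every library and 2 could be tested. Ciita, the class II transactivator, had 2 counts in EDA-A2 replicate 1 and 0 in the other libraries. Cd74, the invariant chain of class II, had 50.5 and 50.4 normalized counts in control and 89.2 and 108 after EDA-A2. That is a change of 0.97 on the log2 scale (standard error 0.23, adjusted p = 0.0228 by edgeR's quasi-likelihood test), and the adjusted p was 0.0798 with DESeq2's Wald test and 0.141 with no filter on low counts. The log2 fold change of Cd74 was 0.964 and 0.962 without control replicates 1 and 2. H2-DMa, which helps peptides onto class II, changed by 0.14 on the log2 scale (adjusted p = 0.866 in edgeR).

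The genes whose profile over the 4 libraries lay nearest to the mean profile of the 10 class I presentation genes, by Euclidean distance of centred log2 (normalized count + 1) among 12956 protein-coding genes outside the lists, were Zfp953 (0.0213), Slc4a7 (0.0374), Mob3a (0.0403), Tmem140 (0.04998) and Rbpj (0.0512). The mean profile was -0.11 and -0.28 in control and 0.17 and 0.23 after EDA-A2. Slc4a7, a sodium bicarbonate cotransporter, and Rbpj, the DNA-binding factor of Notch signalling, were called higher by edgeR with log2 fold changes of 0.38 (adjusted p = 0.00432) and 0.39 (adjusted p = 0.00517). The distance describes 4 libraries only.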
